A study of Mus musculus with 36 samples.

Results

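Efferocytosis is the clearance of dying cells by phagocytes, and the 8 genes described here encode receptors and bridging proteins of that process. They were the rows of the expression table named Mertk, Axl, Tyro3, Gas6, Pros1, Mfge8, Tgm2 and Cd300lf, which made 8 of the 49315 genes listed, and each name matched 1 row. Liver polyA RNA was sequenced from 36 males of 11 to 12 weeks of age, 4 per group in 9 groups. A mutation made by CRISPR, W441F, puts phenylalanine (F) in place of tryptophan (W) at residue 441 of the nuclear receptor LXRalpha, and the study asked how LXRalpha acts in MASH, the steatotic liver inflammation named in its title. W/W mice were homozygous controls, W/F mice heterozygous and F/F mice homozygous mutants.

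Each genotype was studied under 3 conditions. Chow mice came from an independent cohort kept on a normal diet. Vehicle mice received a MASH promoting diet rich in fat and cholesterol (Teklad TD.96121) for 4 weeks, with vehicle given by daily oral gavage in the last 2 weeks. T0901317 mice received the same diet with the LXR agonist T0901317 at 10 mg/kg per day over those 2 weeks. The diet groups thus differed from chow in cohort and in gavage as well as in diet, and these cannot be told apart. The allele was present in all cells, and neither the number of founder lines nor litters was given in the sources used here. The labels call the mice separate animals only through their replicate numbers, so the p-values measure the spread between these livers.

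Phagocytes recognise dying cells mainly by phosphatidylserine, a lipid that moves to the outer face of the cell membrane. Mertk, Axl and Tyro3, together called the TAM receptors, are receptor tyrosine kinases that do not touch the lipid themselves. Their ligands Gas6 and Pros1 (protein S) bind it and bridge the dying cell to the receptor, and both ligands need vitamin K dependent carboxylation for this. Mfge8 bridges the same lipid to integrins of the alpha v family, and Tgm2, a transglutaminase, is known as a partner of that integrin complex. Cd300lf is a myeloid immunoglobulin-like receptor that binds phosphatidylserine directly. In the liver, Kupffer cells, the resident macrophages, are rich in Mertk, hepatocytes secrete Pros1, and stellate cells are a known source of Gas6. Mertk is known in macrophages as a gene that LXR agonists can raise.

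The stretches before the transcription start are shown because the members moved together in several comparisons and because the mutated protein is a DNA binding receptor. RefSeq windows of 250 bases were found for 7 of the 8 members in build GRCm38.p6, and Tgm2 is named only. The window of Mertk lies at chr2:128698665-128698914 on the plus strand, that of Mfge8 at chr7:79149061-79149310 on the minus strand and that of Cd300lf at chr11:115133993-115134242 on the minus strand. All are written 5′ to 3′ along the gene and end at the base before the start. Capitals mark the GC box (GGGCGG, or CCGCCC where it lies on the other strand) and the TATA box (TATAAA, or TTTATA on the other strand).
Mertk: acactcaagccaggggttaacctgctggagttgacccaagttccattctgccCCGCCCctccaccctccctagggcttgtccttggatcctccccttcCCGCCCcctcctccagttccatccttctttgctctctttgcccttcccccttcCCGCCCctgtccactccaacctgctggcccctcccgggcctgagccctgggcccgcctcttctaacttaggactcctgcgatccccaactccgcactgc
Mfge8: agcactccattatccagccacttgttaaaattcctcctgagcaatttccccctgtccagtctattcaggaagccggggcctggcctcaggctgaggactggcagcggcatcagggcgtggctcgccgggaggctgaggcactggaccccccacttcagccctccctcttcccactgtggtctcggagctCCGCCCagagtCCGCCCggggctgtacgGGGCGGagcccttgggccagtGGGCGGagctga
Cd300lf: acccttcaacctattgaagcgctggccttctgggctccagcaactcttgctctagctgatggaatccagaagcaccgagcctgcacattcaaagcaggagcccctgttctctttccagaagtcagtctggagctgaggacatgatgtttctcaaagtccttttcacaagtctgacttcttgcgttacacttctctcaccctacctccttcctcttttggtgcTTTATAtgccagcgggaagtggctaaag
The GC box was found in 6 of the 7 windows, and in 32.742% of all 32851 RefSeq windows of this length. Pros1 held 5 GC boxes, Gas6 and Mfge8 held 4 each, Mertk and Tyro3 held 3 each and Axl held 1. Cd300lf held none, and it alone held a TATA box, which is present in 12.368% of all windows. Its G and C content was 50.0%, against 54.8% to 73.2% in the other windows and a median of 52.4% over all windows. On both strands, none of the 7 windows held the hexamer AGGTCA that many nuclear receptors bind (14.024% of all windows) or the direct repeat that contains it, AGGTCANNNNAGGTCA (0.015%), the form that LXR binds with its partner RXR. None held the ETS core GAGGAAGT (2.441%), the AP-1 site TGANTCA (6.749%) or the E-box CACGTG (6.021%) either. No other motif searched contains another. These matches describe letters in a short window only.

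In GENCODE M21, on build GRCm38, the genes lie at chr2:128698956-128802894 (Mertk), chr7:25757273-25788705 (Axl), chr2:119797733-119818104 (Tyro3), chr11:115116214-115133992 (Cd300lf), chr8:13465374-13494490 (Gas6), chr16:62854307-62929346 (Pros1), chr7:79133768-79149060 (Mfge8) and chr2:158116402-158146436 (Tgm2). Mertk, Tyro3 and Pros1 are on the plus strand and the others on the minus strand. Values are TPM, a scale of transcript shares corrected for gene length and library total. About 18100000 to 35800000 reads per library could be recovered from the table, with a median of about 23900000. Mertk rested on 296 to 2127 recovered reads per library, Cd300lf on 12.0 to 1192 and Tyro3 on 3.0 to 58.0. The point mutation leaves no trace in a TPM table, so the genotype labels could not be checked, and Nr1h3, the gene of LXRalpha, had group means of 86.8 to 108 TPM. Hepatocyte markers summed to 34716 to 103960 TPM per library and were lowest in F/F vehicle livers. TPM are shares of a total, and the median gene was higher by 0.52 on the log2 scale in W/F than in W/W livers on vehicle and by 0.70 in F/F. Each fold change was therefore also computed on rescaled TPM, in which the median gene is level. Replicate 2 of the W/F T0901317 group stood apart in its macrophage markers (Adgre1, Csf1r, Cd68, Lyz2, Mpeg1, Aif1 and Cd163). They summed to 1041 TPM, against 127 to 173 in the 3 others. In the W/W vehicle group, replicate 4 was also apart, at 292 TPM against 130 to 140 in the other livers.

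Among the receptors, Mertk was expressed at about the same level in 5 of the 6 groups of W/W and W/F mice and was high in W/F livers on the diet with vehicle. In W/W livers it measured 9.66, 9.82, 9.41 and 12.7 TPM on chow, 8.21, 11.8, 8.99 and 11.8 on vehicle and 9.32, 11.6, 11.2 and 11.7 on T0901317. In W/F livers the values were 9.15, 10.4, 9.65 and 10.9 on chow, 37.5, 47.2, 56.2 and 30.8 on vehicle and 7.41, 15.6, 8.34 and 8.92 on T0901317. In F/F livers they were 12.6, 8.35, 17.0 and 12.8 on chow, 27.1, 30.2, 21.9 and 31.0 on vehicle and 28.9, 26.1, 21.1 and 26.4 on T0901317. The W/F vehicle group, with 42.9 ± 11.1 TPM (SD, n = 4), had the highest mean, but its lowest liver lay within the range of the F/F vehicle group. The F/F vehicle and F/F T0901317 groups overlapped as well, and both lay above every other F/F, W/F or W/W group except W/F vehicle.

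Axl, a TAM receptor typical of inflamed tissue, was low in W/W mice and high in mutants on the diet. In W/W livers it measured 4.68, 6.81, 5.06 and 6.83 TPM on chow, 6.52, 7.04, 7.44 and 11.2 on vehicle and 7.52, 16.7, 11.2 and 8.71 on T0901317. In W/F livers it measured 3.43, 4.59, 6.35 and 7.20 on chow, 61.3, 69.7, 73.0 and 56.9 on vehicle and 6.84, 31.2, 10.1 and 7.88 on T0901317. The vehicle livers of W/F mice lay far above both other W/F groups, and among T0901317 livers replicate 2 alone exceeded 11 TPM. F/F livers had 22.00, 16.8, 26.5 and 26.8 TPM on chow, 57.9, 69.7, 54.9 and 61.5 on vehicle and 56.9, 47.5, 34.1 and 46.1 on T0901317. F/F chow livers thus already exceeded every W/W liver, and W/F vehicle, F/F vehicle and F/F T0901317 followed each other in the order of means with overlapping ranges.

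Tyro3, the third TAM receptor, stayed under 1 TPM in every library and was not among the genes tested. Its group means ranged from 0.124 TPM in W/F chow to 0.895 TPM in F/F vehicle livers. The 4 F/F vehicle livers had 0.954, 0.947, 0.810 and 0.868 TPM and the 4 W/F vehicle livers 0.702, 0.645, 0.431 and 0.613, with no overlap. Among the genes tested, 27.4% did not overlap between these groups. W/W vehicle livers had 0.0499, 0.294, 0.244 and 0.190 TPM, all below both mutant groups. With so few reads per library, finer differences were not resolved.

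Cd300lf was near or under 1 TPM in most W/W livers. W/W livers measured 0.549, 0.947, 0.319 and 0.940 TPM on chow, 0.341, 0.747, 0.841 and 1.72 on vehicle and 0.763, 2.18, 0.914 and 1.18 on T0901317. W/F livers measured 0.605, 0.641, 0.405 and 0.521 on chow, 10.7, 17.3, 16.8 and 10.0 on vehicle and 1.01, 6.98, 0.883 and 0.960 on T0901317. The vehicle livers were above all other W/F livers, and replicate 2 of the T0901317 group lay between. F/F livers measured 2.67, 2.40, 3.25 and 2.55 on chow, 16.3, 26.7, 13.9 and 22.6 on vehicle and 11.1, 7.49, 5.17 and 7.14 on T0901317. These 3 F/F groups did not overlap each other. Of all genes tested, 50.5% did not overlap between F/F vehicle and F/F chow livers, and 33.3% between F/F T0901317 and F/F vehicle livers.

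**Figure D1:**
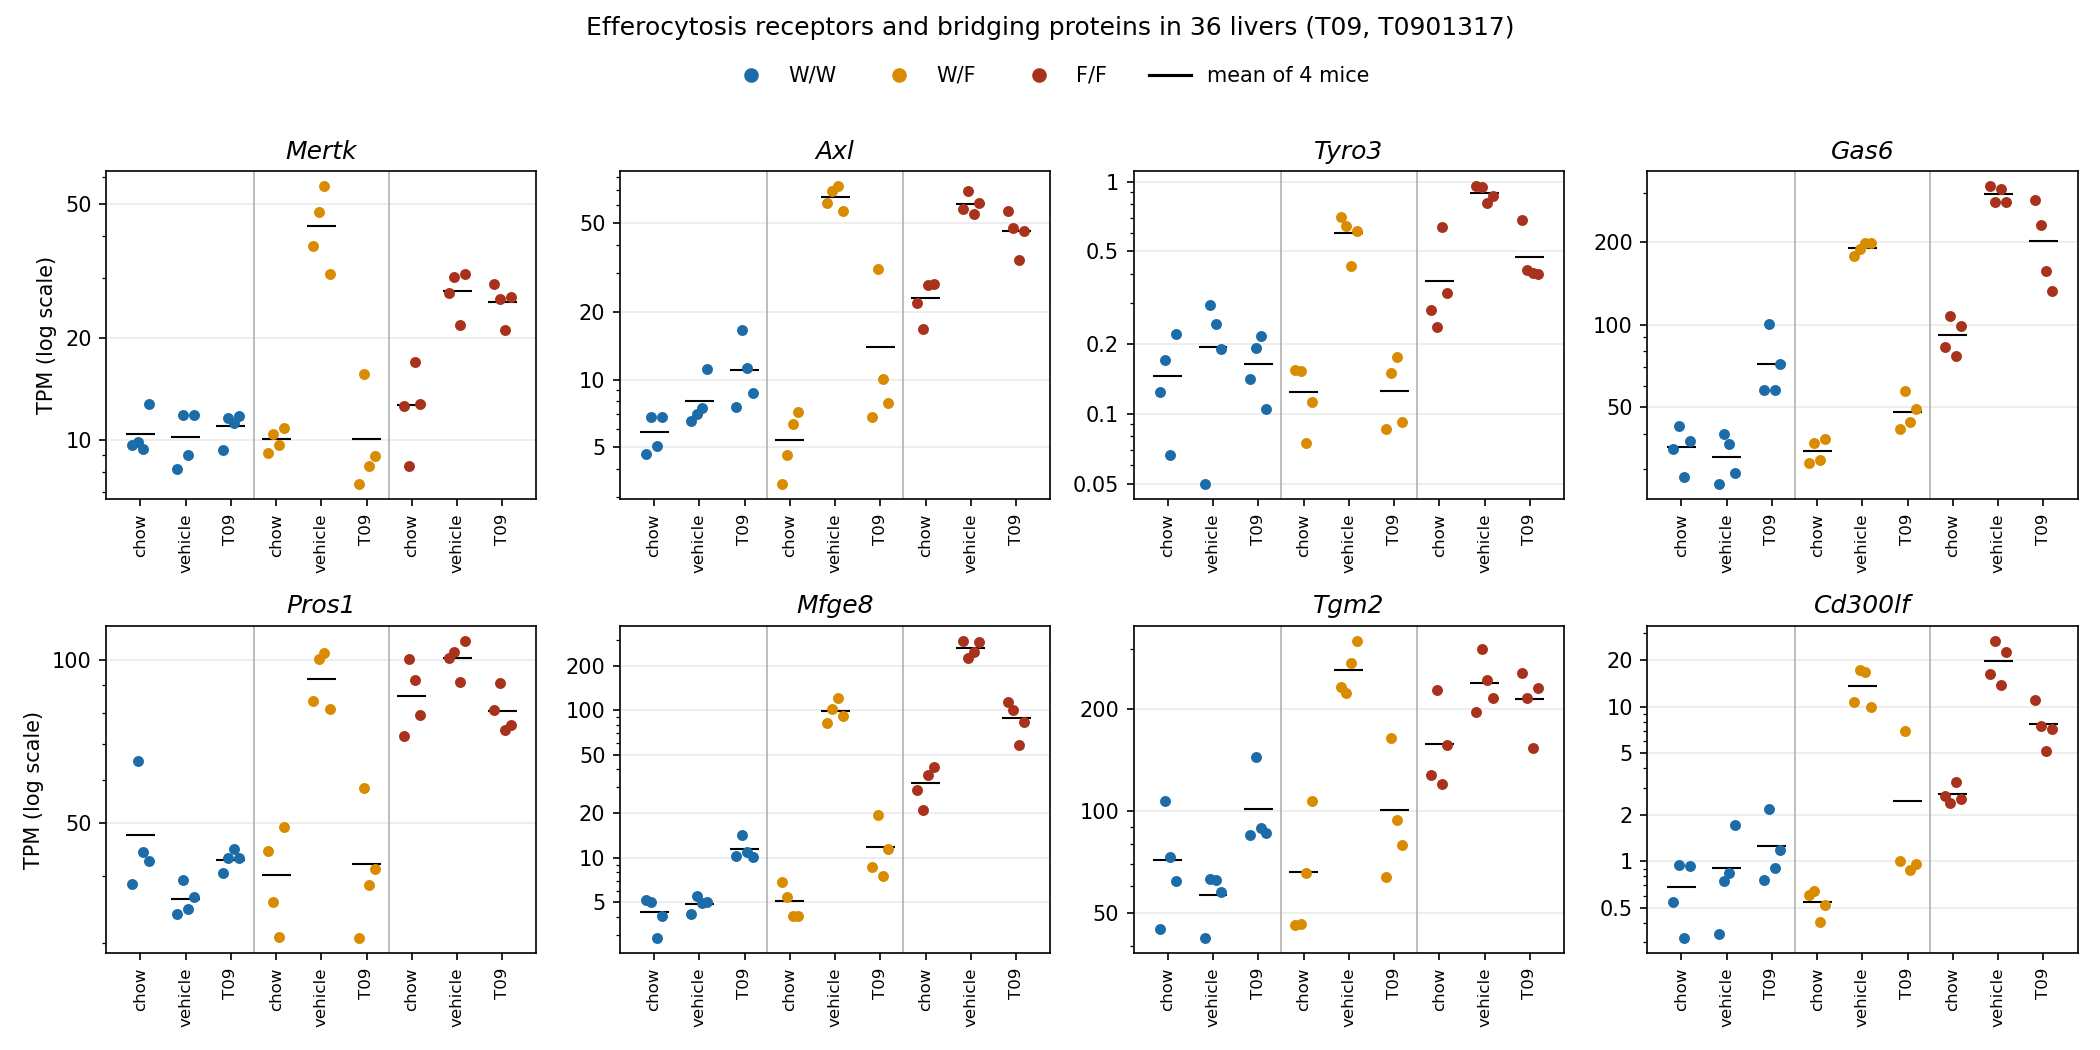
Expression of the 8 genes in TPM on a log axis, with 1 point per liver (4 per group), the group mean as a black line and the genotypes in blue (W/W), orange (W/F) and red (F/F). The vehicle groups of W/F and F/F mice sit high in every panel, the W/F T0901317 group sits near the W/W groups, and Mfge8 spans the widest range, from a mean of 4.29 TPM in W/W chow to 264 TPM in F/F vehicle livers.

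Gas6, the ligand of all TAM receptors, differed in W/W mice between vehicle and agonist. W/W livers measured 35.3, 42.9, 27.9 and 37.8 TPM on chow, 26.4, 40.1, 36.8 and 29.0 on vehicle and 57.7, 100.2, 58.0 and 72.2 on T0901317. Every agonist-treated W/W liver exceeded every W/W liver on vehicle or chow. W/F livers measured 31.4, 37.1, 32.2 and 38.3 on chow, 177, 188, 198 and 198 on vehicle and 41.7, 57.5, 44.3 and 49.5 on T0901317. In W/F mice the order was reversed, with all vehicle livers above all agonist livers. F/F livers measured 82.9, 108, 76.7 and 99.1 on chow, 317, 279, 311 and 279 on vehicle and 284, 230.1, 156 and 133 on T0901317, and the last group spread widely enough to overlap both F/F vehicle and W/F vehicle.

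Pros1, which is also an anticoagulant cofactor in plasma, varied least. Its group means ran from 36.2 TPM in W/W vehicle to 101 TPM in F/F vehicle livers. W/W livers had 38.6 to 65.1 TPM on chow, 34.0 to 39.3 on vehicle and 40.4 to 44.7 on T0901317. W/F livers had 44.5, 35.8, 30.8 and 49.3 TPM on chow, 84.2, 100.4, 103 and 81.5 on vehicle and 30.7, 58.2, 38.4 and 41.2 on T0901317. The 3 F/F groups and the W/F vehicle group formed the upper set, with 72.4 TPM as the lowest liver in it and 65.1 TPM as the highest liver outside it.

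Mfge8 had the widest range of the members. W/W livers measured 5.20, 5.05, 2.86 and 4.03 TPM on chow, 4.15, 5.54, 4.94 and 5.001 on vehicle and 10.3, 14.3, 11.0 and 10.1 on T0901317. W/F livers measured 6.92, 5.40, 4.05 and 4.02 on chow, 81.9, 101, 120.1 and 91.6 on vehicle and 8.69, 19.6, 7.57 and 11.6 on T0901317. Agonist-treated livers of W/W and W/F mice overlapped, although the first lay above and the second below their own vehicle group. F/F livers measured 28.9, 21.2, 36.4 and 41.2 on chow, 295, 225, 247 and 290.1 on vehicle and 113, 99.8, 58.4 and 83.5 on T0901317, with no overlap between these groups. Such a lack of overlap was seen in 50.5% of all genes tested between F/F vehicle and chow, and in 33.3% between F/F T0901317 and vehicle. In the order of means, F/F vehicle lay clear of W/F vehicle, and the chow groups of W/F and W/W overlapped with W/W vehicle at the bottom.

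Tgm2 had the highest mean of the 8 members in 8 of the 9 groups, and only in F/F vehicle livers did Gas6 and Mfge8 exceed it. W/W livers had 44.9, 107, 73.4 and 62.3 TPM on chow, 42.2, 63.2, 62.8 and 57.7 on vehicle and 84.8, 145, 88.9 and 86.2 on T0901317. W/F livers had 46.2, 46.7, 65.8 and 107 on chow, 232, 222, 273 and 317 on vehicle and 64.1, 164, 94.3 and 79.3 on T0901317. Every W/F vehicle liver exceeded every W/F liver of the other groups. F/F livers had 128, 227, 120.4 and 156 on chow, 196, 299.9, 242 and 215 on vehicle and 255, 216, 153 and 231 on T0901317, and all neighbours in the order of the 9 means overlapped. In the annotation, 21.8% of its exon length is shared with genes on the opposite strand (Rprd1b and Gm20412). Whether reads were counted by strand is not given in the sources used here. Its values may thus be too high or too low from reads in the shared stretches. For Gas6 this share was 1.33% (Tmem255b), and the other members share no exon base.

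The first comparison asked what the agonist did in each genotype on the diet. In W/W livers T0901317 raised 2 of the 7 members tested, against 10.8% of all 16638 genes tested (7.87% higher). Gas6 rose by 1.08 on the log2 scale (SE 0.18, limma adjusted p = 9.71e-05), 2.18 times its vehicle mean. Mfge8 rose by 1.07 (SE 0.23, limma adjusted p = 0.00148), 2.33 times. Tgm2 did not pass, with a log2 fold change of 0.81 and a limma adjusted p of 0.0552, although its groups did not overlap, and the same held for Pros1 (0.24, limma adjusted p = 0.382). Of all genes tested, 16.5% did not overlap in this comparison. Mertk, the receptor known as an LXR target in macrophages, had a log2 fold change of 0.10 (SE 0.19, limma adjusted p = 0.822).

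In W/F livers the agonist lowered all 7 members tested, where 65.9% of all genes were called and 59.3% were lower. Mfge8 fell by 3.03 on the log2 scale (SE 0.23, limma adjusted p = 9.51e-12), from a mean of 98.7 to 11.9 TPM. Axl fell by 2.39 (SE 0.29), Cd300lf fell by 2.37 (SE 0.31) and Mertk fell by 2.01 (SE 0.19). Gas6 fell by 1.96, Tgm2 fell by 1.45 and Pros1 fell by 1.14. The median of the 7 was -2.01, beside -0.49 for the median gene, and all 7 also fell on rescaled TPM (27.1% of all genes lower), from -0.55 for Pros1 to -2.45 for Mfge8. Without replicate 2 of the agonist group, the 7 log2 fold changes ran from -1.31 for Pros1 to -3.28 for Mfge8, and Axl changed from -2.39 to -2.84. A lower level in a whole liver can reflect fewer cells of a type or less RNA per cell, and these cannot be told apart here or in any comparison below.

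In F/F livers 3 of the 7 members fell with the agonist and none rose, against 35.1% of all genes called (31.2% lower). Mfge8 fell by 1.60 on the log2 scale (SE 0.23, limma adjusted p = 7.97e-06) to 88.8 ± 23.7 TPM. Cd300lf fell by 1.26 (SE 0.31, limma adjusted p = 0.00325). Gas6 fell by 0.62 (SE 0.18, limma adjusted p = 0.0099), but its value was -0.36 with an adjusted p of 0.165 on rescaled TPM. Without agonist replicate 3 or without agonist replicate 4, the limma adjusted p of Gas6 was 0.0552 and 0.0640. Mertk was at 27.6 TPM on vehicle and 25.6 TPM on agonist, a log2 fold change of -0.10 that became 0.16 on rescaled TPM, and neither passed the test.

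The responses themselves were compared between genotypes. The agonist response of W/F livers was lower than that of W/W livers for all 7 members (58.5% of all genes called, 53.2% lower). This difference was -4.09 for Mfge8 (SE 0.32, limma adjusted p = 7.04e-11), -3.05 for Gas6 (SE 0.26) and -1.38 for Pros1 (SE 0.22), the smallest of the 7. Between F/F and W/W, 4 members responded lower (30.4% of all genes called, 27.2% lower). The difference was -2.66 for Mfge8, -1.71 for Gas6, -1.51 for Cd300lf and -0.57 for Pros1. The limma adjusted p of Pros1 was 0.0461, it was 0.48 on rescaled TPM, and leaving out any of 12 of the 16 libraries ended the call, with an adjusted p of up to 0.0924. With voom weights on recovered reads, 2 members passed, Gas6 and Mfge8, and Cd300lf had an adjusted p of 0.0776. Tgm2 missed the threshold (limma adjusted p = 0.057) and passed without F/F vehicle replicate 1 (0.0488) or F/F T0901317 replicate 1 (0.0448).

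The response of F/F livers was also less negative than that of W/F livers for 6 of the 7 members (19.2% of all genes called, 17.6% higher). Axl differed by 1.98 (SE 0.40, limma adjusted p = 0.0013) and Mertk by 1.91 (SE 0.27, limma adjusted p = 2.80e-05). Cd300lf did not pass in all 16 libraries (limma adjusted p = 0.0756) and passed without replicate 2 of the W/F T0901317 group (adjusted p = 5.30e-04) or without F/F T0901317 replicate 3 (0.0455). On rescaled TPM, Pros1 (0.49, adjusted p = 0.109) and Tgm2 (0.95, adjusted p = 0.0884) no longer passed. Tgm2 also missed the threshold without replicate 1 of W/F T0901317 (adjusted p = 0.0661) or of F/F T0901317 (0.0504). These comparisons share their vehicle groups, so their values are given side by side and not correlated.

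**Figure D2:**
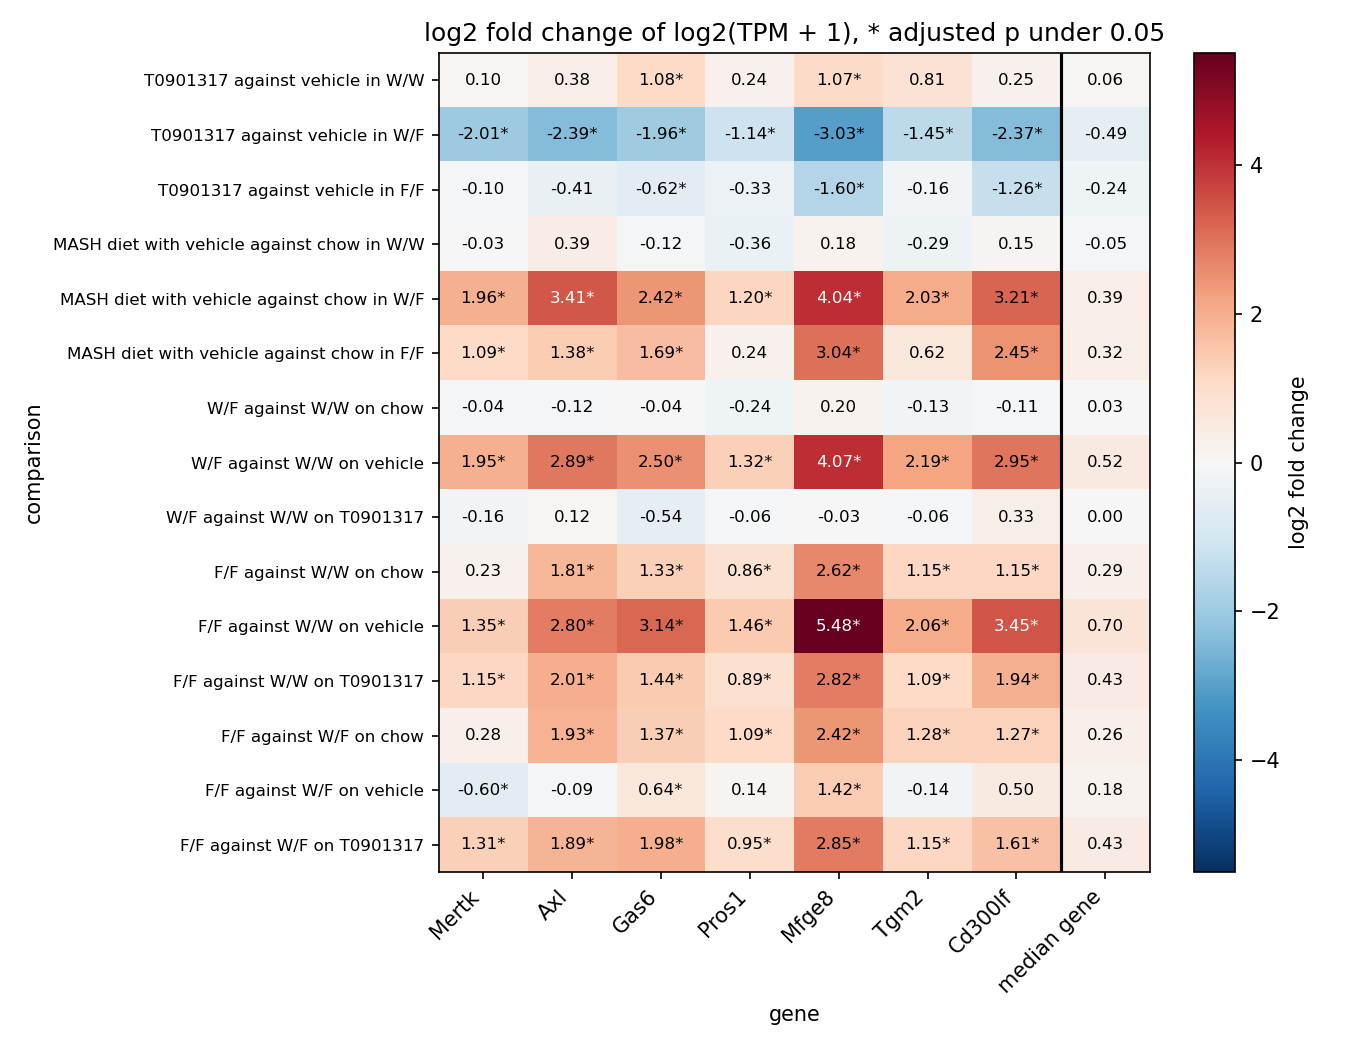
Log2 fold changes of the 7 members tested (columns) in the 15 comparisons between 2 groups (lines), with the median of all genes tested in the last column and an asterisk where the limma adjusted p was under 0.05. Red is higher and blue lower in the first group named: the line for W/F livers on the agonist is blue for every member, that for W/W livers holds 2 calls, and W/F against W/W livers on chow or on agonist hold none.

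The second comparison set the diet with vehicle against chow. In W/W livers the diet called 0 of the 7 members with limma (1, Pros1, at an unadjusted p under 0.05, and 0 with voom on recovered reads), against 12.9% of all genes. The log2 fold changes ranged from -0.36 for Pros1 to 0.39 for Axl. In W/F livers all 7 rose (61% of all genes called, 52.4% higher). Mfge8 rose by 4.04 (SE 0.23, limma adjusted p = 7.08e-15), Axl rose by 3.41 (SE 0.29) and Cd300lf rose by 3.21 (SE 0.31), while the median gene stood at 0.39. Pros1 had the smallest rise, 1.20 (SE 0.15).

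In F/F livers 5 of the 7 rose with the diet (55.8% of all genes called, 46.5% higher). Mfge8 rose by 3.04, Cd300lf rose by 2.45, Gas6 rose by 1.69, Axl rose by 1.38 and Mertk rose by 1.09, the last with an SE of 0.19 and a limma adjusted p of 1.49e-05. Tgm2 (0.62, limma adjusted p = 0.0567) did not pass, though it passed without F/F chow replicate 2 (adjusted p = 0.0208) or F/F vehicle replicate 1 (0.0486). Pros1 did not pass either, at 0.24 and at -0.11 on rescaled TPM.

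The diet response exceeded that of W/W livers for all 7 members in W/F livers (54.6% of all genes called, 49.5% higher) and for 6 in F/F livers (46% called, 41.5% higher). In W/F the difference on the scale of log2(TPM + 1) was largest among the 7 for Mfge8, 3.86 (SE 0.32, limma adjusted p = 3.91e-10). That scale understates changes of low genes such as Cd300lf. By ratio of means, vehicle stood at 25.2 times chow for Cd300lf and 19.4 times for Mfge8 in W/F livers. In W/W livers these ratios were 1.32 and 1.15. In F/F the difference was 2.86 for Mfge8 (SE 0.32), 2.30 for Cd300lf (SE 0.44), 1.82 for Gas6 (SE 0.26) and 1.12 for Mertk (SE 0.27). Axl (0.99, limma adjusted p = 0.0445) and Pros1 (0.60, limma adjusted p = 0.0238) passed narrowly. On rescaled TPM their adjusted p-values were 0.302 and 0.699. Leaving out any of 10 of the 16 libraries ended the call of Axl, with an adjusted p of up to 0.102, and leaving out W/W chow replicate 2 or F/F chow replicate 1 ended that of Pros1 (0.0770 and 0.0580). Tgm2 did not pass (0.91, limma adjusted p = 0.0559), though it passed without W/W chow replicate 1 (0.0218), F/F chow replicate 2 (0.0267) or F/F vehicle replicate 1 (0.0468).

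**Figure D3:**
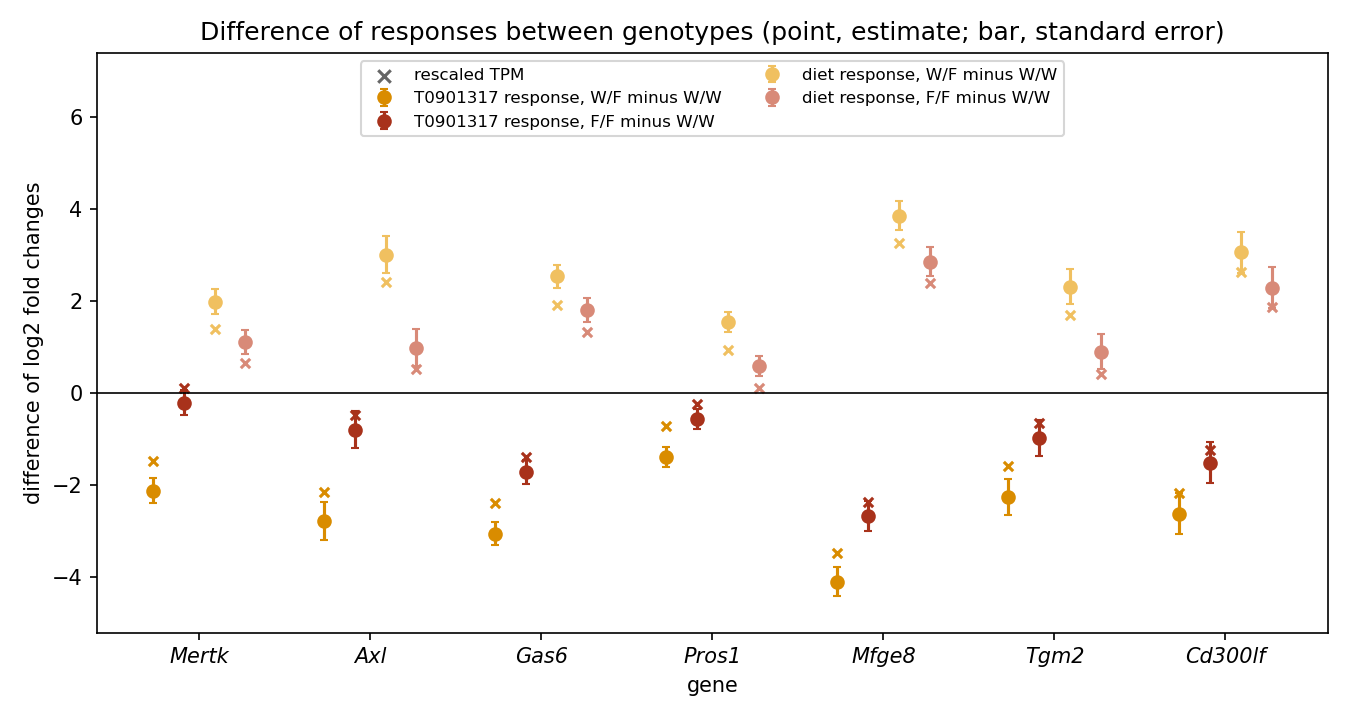
Difference of log2 fold changes between genotypes for the 7 members tested, with points for the estimates, bars for their standard errors and crosses for rescaled TPM. The agonist responses of W/F minus W/W livers (orange) run from -1.38 for Pros1 to -4.09 for Mfge8, and the diet responses (lighter colours) lie above 0 for every member.

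The third comparison set the genotypes against each other within a condition. On chow, W/F and W/W livers differed in 0 of the 7 members by limma (0 at an unadjusted p under 0.05, 0 with voom on recovered reads), against 0.487% of all genes. On vehicle all 7 were higher in W/F livers (68.5% of all genes called, 61.6% higher). Mfge8 was 20.1 times its W/W mean (log2 fold change 4.07, SE 0.23), Cd300lf 15.0 times, Axl 8.10 times, Gas6 5.74 times, Tgm2 4.62 times, Mertk 4.20 times and Pros1 2.55 times. Each of the 7 groups of 4 W/F livers lay above the 4 W/W livers without overlap, and 60.4% of all genes did not overlap in one direction or the other. On T0901317 the count was 0 with limma (1, Gas6, at an unadjusted p under 0.05, and 0 with voom), against 9.88% of all genes. Gas6 had a log2 fold change of -0.54 (SE 0.18, limma adjusted p = 0.056) with no overlap, as had 15.1% of all genes. It passed on rescaled TPM (-0.53, adjusted p = 0.0347). It passed as well without W/W T0901317 replicate 1 (0.0392), W/W T0901317 replicate 3 (0.0432) or W/F T0901317 replicate 2 (0.0399).

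F/F livers already differed from W/W livers on chow, where 6 members were higher (46.7% of all genes called, 43% higher). Mfge8 rose by 2.62 (SE 0.23, limma adjusted p = 4.92e-10), Axl by 1.81 (SE 0.29) and Gas6 by 1.33 (SE 0.18). Mertk did not pass, with 0.23 (SE 0.19, limma adjusted p = 0.319) and -0.12 on rescaled TPM. On vehicle all 7 were higher (76.5% called, 69.3% higher), from Mertk with 2.70 times its W/W mean to Mfge8 with 53.8 times (log2 fold change 5.48, SE 0.23). The log2 fold change of Mertk was 1.35, where the median gene stood at 0.70, and it was 0.54 on rescaled TPM (limma adjusted p = 0.00207). On T0901317 all 7 were higher as well (63.2% called, 56.3% higher), from 0.89 for Pros1 to 2.82 for Mfge8, and Tgm2 alone lost its call on rescaled TPM (0.56, adjusted p = 0.0846).

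Both mutant genotypes were also compared directly. On chow 6 members were higher in F/F than in W/F livers, all but Mertk (41.4% of all genes called, 37.9% higher), and on T0901317 all 7 were higher (62.6% called, 58.5% higher). On vehicle 3 members differed (21.3% called, 19% higher and 2.3% lower). Mfge8 was higher in F/F by 1.42 (SE 0.23, limma adjusted p = 5.88e-05) and Gas6 by 0.64 (SE 0.18, limma adjusted p = 0.0128), the latter at 0.44 with an adjusted p of 0.104 on rescaled TPM. Mertk was lower in F/F livers, at -0.60 (SE 0.19, limma adjusted p = 0.0232) and stood at -0.79 on rescaled TPM (adjusted p = 4.66e-04). That call was lost without W/F vehicle replicate 2 (0.0663), W/F vehicle replicate 3 (0.103) or F/F vehicle replicate 3 (0.0849). Tgm2 on T0901317 lost its call on rescaled TPM (0.61, adjusted p = 0.067), and Mertk on chow had 0.28, or -0.05 on rescaled TPM.

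Like these members, most markers of macrophages of any origin and of lipid-associated macrophages were higher in mutant than in W/W livers on vehicle. Kupffer cell markers were lower in F/F livers there. Counts of markers are to be read against all genes tested. On vehicle, 61.6% were higher and 6.83% lower in W/F than in W/W livers, or 27.6% and 25.5% on rescaled TPM. In F/F livers these shares were 69.3% and 7.13%, or 31% and 28.1%. With T0901317, 59.3% were lower and 6.59% higher in W/F livers. In F/F livers 31.2% were lower and 3.95% higher, or 7.98% and 8.32% on rescaled TPM. The vehicle counts of markers are on TPM that were not rescaled. The 7 markers of macrophages of any origin summed to 129.8 to 292 TPM in W/W vehicle livers, 2825 to 3816 in W/F vehicle and 3448 to 4460.3 in F/F vehicle livers. Lyz2 alone made up most of the mutant sums, with means of 91.3, 2414 and 3228 TPM in these groups. Csf1r had means of 15.8, 104 and 90.8 TPM. Of the 7 markers, 6 rose and 1, Cd163, fell in W/F against W/W livers on vehicle, and the same count held in F/F. The 7 markers of lipid-associated macrophages (Gpnmb, Trem2, Cd9, Spp1, Lpl, Fabp5 and Mmp12) summed to 83.9 to 105 TPM for W/W, 2040.5 to 2335 for W/F and 3892 to 4582 for F/F vehicle livers, and all 7 rose in both mutants. With T0901317 their sums were 387 to 496, 133 to 402 and 1068 to 2115 TPM. In W/W livers Trem2 stayed low, with means of 0.471 TPM on vehicle and 0.762 TPM on T0901317. The higher W/W sum on T0901317 thus lay in other genes of this list. The 6 Kupffer cell markers (Clec4f, Timd4, Cd5l, Vsig4, Marco and Folr2) went another way in F/F mice, with 182 to 226 TPM for W/W, 294 to 427 for W/F and 4.68 to 6.47 for F/F vehicle livers, and all 6 were lower in F/F than in W/W there, while 1 was higher and 2 were lower in W/F. With T0901317 the macrophage markers of any origin summed to 181 to 337 TPM in W/W livers, 127 to 1041 in W/F livers and 1346 to 2174 in F/F livers. The agonist lowered 6 and raised 1 of these 7 in W/F livers and lowered 4 in F/F livers, or 1 on rescaled TPM. The Kupffer cell markers summed to 186 to 375 TPM in W/W, 109.7 to 593 in W/F and 147 to 244 in F/F livers on T0901317. The agonist thus moved them opposite to the members that fell in F/F livers: 3 of the 6 rose and none fell, on rescaled TPM too. Clec4f rose by 4.53 (SE 0.27), from a mean of 0.354 to 30.3 TPM, Cd5l rose by 5.49 (SE 0.38) and Vsig4 rose by 3.29 (SE 0.31). No marker of these 3 lists was at 0 in all livers of a group. The part of these cells in the members' changes was not tested.

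Markers of some other cells moved as well. Their counts, on TPM, stand beside 61.6% of all genes higher in W/F and 69.3% in F/F livers on vehicle. On rescaled TPM these shares were 27.6% and 31%. The 8 markers of stellate cells and myofibroblasts summed to 97.2 to 151 TPM for W/W, 508 to 670.1 for W/F and 835 to 1003 for F/F vehicle livers, and the 5 cholangiocyte markers to 6.08 to 8.75, 41.8 to 65.0 and 123 to 155 TPM, and all 8 and all 5 rose in W/F and in F/F livers. Monocyte markers summed to 5.79 to 12.2, 79.0 to 92.6 and 117 to 201 TPM in the same groups (5 of 5 higher in both mutants), neutrophil markers to 4.54 to 11.8, 83.5 to 149.7 and 134 to 369.9 TPM (of 5 tested, 3 higher and 1 lower in W/F, 4 higher in F/F). Dendritic cell markers summed to 3.72 to 9.33, 50.9 to 73.3 and 44.3 to 67.6 TPM (5 of 5 tested higher in both). Sinusoidal endothelial markers summed to 84.5 to 95.3, 77.9 to 91.0 and 93.8 to 147 TPM, and lymphocyte markers to 4.58 to 9.86, 6.06 to 13.4 and 10.0 to 14.4 TPM. In both of these lists the W/W and W/F ranges overlapped, and counts of single genes are not given for them. Ly6g, which defines neutrophils, was at 0 in all livers of W/W chow, W/F chow and W/F T0901317, Mpo was at 0 in all W/F chow and all F/F chow livers, and Ncr1, an NK cell gene, in all W/F chow livers. The part of these cells was not tested either.

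Because TPM are corrected for length, members can be set against Csf1r, the receptor for the growth factor that macrophages depend on, within each library, where scaling cancels. These ratios were chosen after the values had been seen and are descriptions. The ratio of Axl to Csf1r had group means between 0.497 ± 0.0826 (SD, n = 4) in W/W chow and 0.794 ± 0.0466 in F/F T0901317 livers, while Axl itself spanned means of 5.39 to 65.2 TPM. It was 0.506 ± 0.0371 in W/W vehicle, 0.634 ± 0.0596 in W/F vehicle and 0.672 ± 0.0432 in F/F vehicle livers, and replicate 2 of W/F T0901317 had 0.545. The ratio of Mertk to Csf1r was 0.898 ± 0.198 in W/W chow, 0.652 ± 0.0853 in W/W vehicle and 0.544 ± 0.111 in W/W T0901317 livers. It was 1.11 ± 0.236 in W/F chow, 0.411 ± 0.0611 in W/F vehicle and 0.572 ± 0.244 in W/F T0901317 livers, and 0.384 ± 0.0551, 0.302 ± 0.0236 and 0.446 ± 0.0446 in the F/F groups in that order. The 3 F/F groups and W/F vehicle, which had the 4 highest means of Csf1r, had the 4 lowest mean ratios, but the order among these 4 did not follow Csf1r. The ratio of Mfge8 to Csf1r had the widest range of the 3, with 0.317 ± 0.0505 for W/W, 0.953 ± 0.0316 for W/F and 2.92 ± 0.389 for F/F vehicle livers. Axl relative to Mertk was 0.791 ± 0.146, 1.56 ± 0.233 and 2.23 ± 0.223 in the same 3 groups, and the F/F chow livers, at 1.86 ± 0.249, exceeded all W/W livers.

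**Figure D4:**
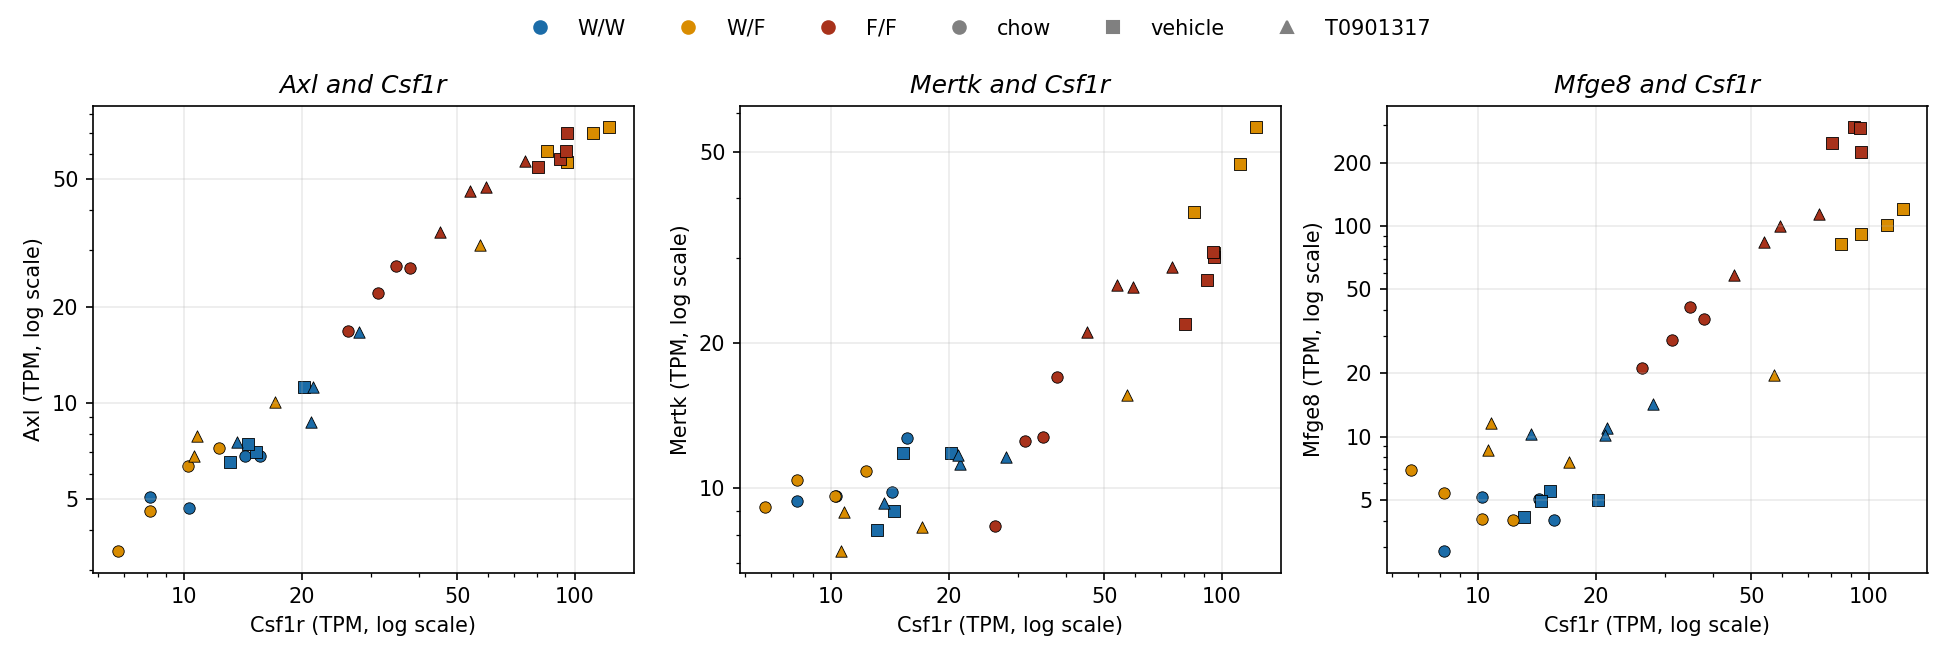
TPM of Axl, Mertk and Mfge8 against Csf1r on log axes, with 1 symbol per liver, colour for the genotype and shape for the condition. Axl follows Csf1r closely across all 36 livers, Mertk stays near 10 TPM until Csf1r is high, and the 4 F/F vehicle livers lie above the W/F vehicle livers for Mfge8 at similar Csf1r.

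The genes most like each member over the 36 livers were named by Pearson's r of log2(TPM + 1) among 9225 genes with a mean of at least 5 TPM. All points share the groups and the scaling of the libraries, so r is a description. Axl was most like Ctss (r = 0.992), a lysosomal protease of antigen-presenting cells, Laptm5 (0.991) and Lyz2 (0.991), the lysozyme of myeloid cells. Cd300lf was most like Plekho2, Selplg and Soat1, the last an enzyme that esterifies cholesterol (0.987, 0.987 and 0.986). Mfge8 was most like Slc25a4, Gnai2 and Cstb (0.988, 0.988 and 0.987). Gas6 was most like another member, Mfge8 (0.973), then Maged2 and B4galt6 (both 0.972). Pros1 (Ctsl, Cyp4f16 and Pygb), Tgm2 (Litaf, Myh9 and Cyb561) and Mertk (Arhgap25, Syk and Abhd12) had values of 0.943 to 0.958. On rescaled TPM, r with the same genes was 0.813 to 0.902 for Pros1, Tgm2 and Mertk. It was 0.948 to 0.987 for Axl, Cd300lf, Mfge8 and Gas6.

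Other genes of the pathway were followed in lists of known function. Their counts are to be read against all genes tested: in W/F against W/W livers on vehicle 61.6% were higher and 6.83% lower, or 27.6% and 25.5% on rescaled TPM, and with T0901317 in W/F livers 59.3% were lower and 6.59% higher, or 27.1% and 23.6%. Of 27 other engulfment receptors, 22 were tested. In W/F against W/W livers on vehicle, 15 were higher and 2 lower, with a median of 1.52 beside 0.52 for all genes, and 13 and 6 on rescaled TPM. Cd14, a receptor for lipopolysaccharide and apoptotic cells, rose by 5.42 (SE 0.49) and Trem2, a lipid receptor of macrophages, rose by 4.89 (SE 0.27). Timd4, a phosphatidylserine receptor of resident macrophages, fell by 2.08 (SE 0.23), and Cd300lg fell by 1.23 (SE 0.19). With T0901317 in W/F livers 16 of the 22 were lower and 2 higher (median -1.34), and these 2 were Timd4, which rose by 1.83 (SE 0.23), and Cd300lg, which rose by 1.16 (SE 0.19).

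In both of these comparisons Timd4 went opposite to the members. It measured 6.36, 5.26, 6.26 and 6.74 TPM in W/W vehicle livers, 0.949, 0, 0.642 and 1.56 in W/F vehicle and 0, 0.0530, 0.210 and 0.143 in F/F vehicle livers. On T0901317 it measured 4.82, 5.28, 10.1 and 6.84 for W/W, 4.36, 6.55, 7.27 and 2.93 for W/F and 0.134, 0.226, 0.730 and 0.212 for F/F livers. W/W and W/F livers overlapped on the agonist, and F/F livers stayed below 1 TPM in every condition.

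Of 20 other bridging and opsonin genes, 18 were tested, and on vehicle 14 were higher and 2 lower in W/F than in W/W livers (median 1.05), or 9 and 5 on rescaled TPM. Lgals3 rose by 5.60 (SE 0.46) and Anxa1 rose by 3.76 (SE 0.21), whereas the plasma proteins Apoe and Apoh fell by 0.30 (SE 0.11) and fell by 0.23 (SE 0.07). In F/F livers on vehicle, Mbl2, an opsonin made by hepatocytes, fell by 2.66 (SE 0.23). All 20 tested genes of engulfment signalling were higher in W/F than in W/W livers on vehicle (median 1.18), from Becn1 at 0.45 to Tyrobp at 3.61. On rescaled TPM 14 were higher and 1, Becn1, was lower. All 20 were lower on T0901317 in W/F livers, or 16 on rescaled TPM.

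On TPM, several of the smaller lists had shares near those 61.6% higher and 6.83% lower of all genes. On rescaled TPM, 27.6% of all genes were higher and 25.5% lower. There the find-me and do-not-eat-me list held a larger share of higher genes, and the vitamin K list a larger share of lower genes. Of 11 genes of find-me and do-not-eat-me signals, 8 rose and none fell in W/F against W/W livers on vehicle, and 8 rose and 3 fell on rescaled TPM. Sirpa, the phagocyte's receptor for Cd47, rose by 4.22 (SE 0.35) and Cd47 rose by 1.37 (SE 0.12). Of 7 genes of TAM receptor shedding and feedback, 5 rose, or 3 on rescaled TPM. Adam17, the protease that sheds Mertk, rose by 1.58 (SE 0.17) and Adam10, which sheds Axl, rose by 1.68 (SE 0.13). Of 5 genes of the vitamin K cycle, 2 rose and 1 fell, or 1 and 4 on rescaled TPM. Nqo1 rose by 2.60 (SE 0.29), and Vkorc1, the reductase that recycles vitamin K, fell by 0.39 (SE 0.09). Of 9 sterol receptors and exporters, 7 rose, or 4 with 3 lower on rescaled TPM. Abcg1, a cholesterol exporter and LXR target, rose by 2.41 (SE 0.24). In W/W livers the agonist raised Abcg1 by 1.36 (SE 0.24), and in W/F livers it fell by 1.32 (SE 0.24).

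In F/F livers on vehicle the same lists gave counts against W/W of 16 higher and 3 lower for the other engulfment receptors, 12 and 4 for the bridging and opsonin genes, 20 and 0 for signalling, 9 and 1 for the find-me and do-not-eat-me signals and 7 and 0 for shedding and feedback. On rescaled TPM these became 14 and 7, 9 and 7, 12 and 2, 8 and 2, and 4 and 0. Of all genes tested, 69.3% were higher and 7.13% lower in that comparison, or 31% and 28.1% on rescaled TPM, so the receptors and the bridging genes had about the share of all genes on TPM. In W/W livers, where the agonist raised 7.87% of all genes and lowered 2.91%, the 2 of 22 other engulfment receptors called were both higher, which is about the share of all genes. They were Cd36, a fatty acid and lipid receptor, which rose by 1.68 (SE 0.31), and Itgb5, the integrin subunit to which Mfge8 can bind, which rose by 0.51 (SE 0.13). Of 20 signalling genes 3 were higher and none lower. In F/F livers the agonist lowered 13 and raised 1 of the 22 receptors, or lowered 7 and raised 3 on rescaled TPM, and lowered 15 of the 20 signalling genes, or 7 on rescaled TPM. Of all genes, 31.2% were lower and 3.95% higher there, or 7.98% and 8.32% on rescaled TPM.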

How the data were processed

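The authors deposited 1 table labelled as TPM, and each column summed to 1000000. Per the submitters' processing notes, Trimmomatic 0.36, STAR 2.5.2b, featureCounts and Subread 1.5.2 and the build GRCm38 (mm10) were used, in an order that is not given. Groups came from the labels. Columns were matched by name, and the members and lists were chosen with earlier results of these data known. The rule named all members, and from each list the 2 largest and 2 smallest called changes with at least 5 TPM in the higher group.

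Depth was recovered with numpy 2.4.6 and pandas 2.3.3 from TPM and GENCODE M21 exon lengths: 93.7% to 95.7% of low values lay within 0.1 of a whole read, where chance gives 20%. Values were tested as log2(TPM + 1), which understates changes of low genes, for the 16638 genes that reached 1 TPM in 4 or more samples. limma 3.58.1 (R 4.3.3) fitted 9 group means over 36 samples, with two-sided tests, 20 comparisons and Benjamini-Hochberg adjustment over all genes at 0.05. The fit was tested on simulated data. Alternatives were another pseudocount, other filters, rescaled TPM (divided by the median ratio over 14786 genes), a replicate block, only the groups compared, leaving out each library and, chosen after seeing the data, voom on recovered reads. No batch is given in the labels.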

Additional observations from a re-analysis of the deposited data

Results flagged for a closer look

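A liver lay far from the other 3 of its group in 5 of the 72 combinations of a gene and a group, where chance gives about 1 in 20. Both Axl, at 31.2 TPM, and Cd300lf, at 6.98 TPM, were high in replicate 2 of the W/F T0901317 group, its liver with high macrophage markers. Mertk was high in W/W chow replicate 4, at 12.7 TPM, Tgm2 in W/W T0901317 replicate 2, at 144.6 TPM, and Tyro3 in F/F T0901317 replicate 1, at 0.683 TPM.

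The response to T0901317 or to the diet differed between genotypes, by limma's test of the difference, in 30 of the 35 combinations of a tested member and a difference. The differences share groups, so these combinations are not separate findings. Of all genes, 58.5% were called for the agonist in W/F minus W/W, 30.4% in F/F minus W/W and 19.2% in F/F minus W/F. For the diet, 54.6% were called in W/F minus W/W and 46% in F/F minus W/W. On rescaled TPM the members called were 7, 3, 4, 7 and 4 in that order. The agonist response of W/F minus that of W/W livers was -2.11 on the log2 scale for Mertk, -2.77 for Axl, -3.05 for Gas6, -1.38 for Pros1, -4.09 for Mfge8, -2.25 for Tgm2 and -2.62 for Cd300lf. The agonist response of F/F minus that of W/W livers was -1.71 for Gas6, -0.57 for Pros1, -2.66 for Mfge8 and -1.51 for Cd300lf. F/F minus W/F gave 1.91 for Mertk, 1.98 for Axl, 1.34 for Gas6, 0.82 for Pros1, 1.43 for Mfge8 and 1.28 for Tgm2. The diet response of W/F minus that of W/W livers was 1.99 for Mertk, 3.02 for Axl, 2.54 for Gas6, 1.56 for Pros1, 3.86 for Mfge8, 2.32 for Tgm2 and 3.06 for Cd300lf. The diet response of F/F minus that of W/W livers was 1.12 for Mertk, 0.99 for Axl, 1.82 for Gas6, 0.60 for Pros1, 2.86 for Mfge8 and 2.30 for Cd300lf.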

How the results depend on the processing

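No fold change of a member that was called reversed under any alternative run. Of the 20 counts of members called, 2 moved by more than 1.5 times. W/F against W/W livers on T0901317 gave 0, which became 1 under the filter of 5 TPM, on rescaled TPM and with the replicate block, and ranged from 0 to 1 when libraries were left out. That for the agonist response of F/F minus W/W livers went from 4 to 2 members with voom on recovered reads. The cause was not tested. Same-numbered libraries showed little shared deviation on average (144 pairs, mean r 0.016, 18 pairs over 0.1, 11 of 36 libraries most like their own number). The numbers were not used as pairs. What they mark is not given, and these values cannot tell a small shared effect from none. With the block, 3 members were called for the agonist in W/W livers, 6 for the diet in F/F livers and, of F/F minus W/W, 5 in agonist and 7 in diet response. Counts over all genes moved by more than 1.5 times on rescaled TPM for the agonist in F/F livers (5841 to 2712), F/F against W/W on chow (7764 to 4978), F/F against W/F on vehicle (3552 to 1762) and on T0901317 (10409 to 6708), and the differences of F/F minus W/W for agonist (5065 to 2900, and 2888 with voom) and diet (7654 to 4460). With only the groups compared, the diet in W/W livers went from 2141 to 580 and W/F against W/W on chow from 81 to 3. The first was 1266 without W/W chow replicate 2, or 1091 with replicate 1 of W/W vehicle left out, and the second 53 without W/W chow replicate 4. The agonist in F/F livers gave 3244 without F/F T0901317 replicate 3, and the agonist response of F/F minus W/F gave 1907, from 3191, without W/F T0901317 replicate 1. Depth limits Tyro3, with 3.0 to 58.0 reads per library, most among the members.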

Other observations

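The balance of the TAM ligands shifted with the groups. Within a library, the ratio of Gas6 to Pros1 in TPM was 0.772 ± 0.149 (SD, n = 4) in W/W chow, 0.912 ± 0.148 in W/W vehicle and 1.68 ± 0.457 in W/W T0901317 livers. It was 0.890 ± 0.175, 2.08 ± 0.253 and 1.18 ± 0.153 in W/F livers and 1.08 ± 0.177, 2.95 ± 0.394 and 2.47 ± 0.759 in F/F livers, in the same order of conditions. Gas6 therefore stood below Pros1 on chow in W/W and W/F means and well above it in F/F vehicle livers. The ratio of Cd300lf to Csf1r was 0.0544 ± 0.0242 for W/W, 0.131 ± 0.0210 for W/F and 0.217 ± 0.0506 for F/F vehicle livers, and 0.0839 ± 0.00772 in F/F chow livers. These ratios were chosen after the values had been seen and were not tested.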
